A study of Bos taurus and Sus scrofa with 6 samples.

Results

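The genes described here encode 7 proteins of the cell junctions of the testis that together make up or surround the blood-testis barrier, namely CLDN11, CLDN5, OCLN, TJP1, GJA1, CDH1 and CDH2. They were chosen by symbol in the gene tables of both species and not by their level. All 7 are listed among the 19994 genes of the cattle table, and 6 among the 22694 of the pig table, whose list of symbols does not hold CLDN5. In cattle 6 of the 7 had enough molecules to be tested, and CDH1 did not. All 6 genes listed in pig were tested.

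The blood-testis barrier is built between neighbouring Sertoli cells, the somatic cells that surround and nourish the germ cells inside the seminiferous tubule. It shuts off meiotic germ cells from blood and lymph, and it combines tight junctions, gap junctions, cadherin-based adherens junctions and desmosomes in one belt of contacts. Claudins and occludin are the transmembrane strands of the tight junction, TJP1 ties them to actin, connexins such as GJA1 form the channels of the gap junction, and classical cadherins hold neighbouring membranes together. The barrier is completed around puberty, and the same families of genes are also used by the endothelium of blood and lymph vessels.

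Testicular parenchyma, obtained by castration, was digested to single cells, with 1 library of total testicular cells per animal. The donors were 3 prepubertal Holstein cattle, which were 4.5 months old, and 3 prepubertal pigs of mixed breed at 3 months. No animal was treated or carried a modification that the labels name, and species, breed and age cannot be told apart in this design. The number given to an animal below is only a name. In this droplet assay every captured RNA molecule carries a unique molecular identifier (UMI), and a level is given as UMIs scaled to 1000000 UMIs of the same sum of cells (CPM). The files hold between 5805223 and 53325608 UMIs per library in cattle and between 6245189 and 40099873 in pig. From these, 17482 cattle cells and 9206 pig cells were kept, with median depths of 789 to 4462 and 889 to 5878 UMIs per cell, lowest in cattle 1 and pig 1. Clusters were named from fixed markers, and no junction gene was among these markers or among the genes used for clustering. Sertoli-like cells numbered 4200 in cattle and 3699 in pig, germ-like cells 517 and 1563, and endothelial-like cells 135 and 687. Pig 1 gave 2 endothelial-like cells, which were left out, so that endothelial-like sums come from 2 pigs. Of the markers listed, 10 of 11 Sertoli markers had UMIs in the Sertoli-like cells of cattle and 9 of 10 in those of pig, with INHBB and AARD at 0. Such a count does not separate types, as it was 10 of 11 in myoid-like cells of cattle and 10 of 10 in germ-like cells of pig. Summed, these markers stood at 8241 to 14833 CPM in Sertoli-like cells of cattle and 23927 to 37584 in those of pig. Among the other named types the highest sums were 2172.5 CPM in cattle and 11965 in pig. Barcodes shared between pairs of libraries numbered 8 to 61, where 9.59 and 65.1 were expected for the same pairs if the libraries are independent.

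Since CLDN11 and CDH2 were the members with the higher level in Sertoli-like cells of both species, the pig sequence just before each gene is shown, so that the results can be read beside it. Both were read from the RefSeq Sscrofa11.1 genome, the build to which the pig reads were aligned, as the 250 bases that precede the annotated gene start, 5′ to 3′ on the strand of the gene. CLDN11 lies on the plus strand of chr13:109075672-109089097, with its window at chr13:109075422-109075671, and CDH2 lies on the minus strand of chr6:112396713-112629073, with its window at chr6:112629074-112629323. Capitals mark the letters GGGCGG, known as the GC box, which was searched on both strands.
CLDN11: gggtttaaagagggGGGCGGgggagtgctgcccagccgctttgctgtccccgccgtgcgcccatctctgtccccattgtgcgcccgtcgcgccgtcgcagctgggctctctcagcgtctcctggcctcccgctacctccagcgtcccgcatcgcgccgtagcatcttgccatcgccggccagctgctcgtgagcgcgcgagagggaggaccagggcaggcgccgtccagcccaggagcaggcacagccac
CDH2: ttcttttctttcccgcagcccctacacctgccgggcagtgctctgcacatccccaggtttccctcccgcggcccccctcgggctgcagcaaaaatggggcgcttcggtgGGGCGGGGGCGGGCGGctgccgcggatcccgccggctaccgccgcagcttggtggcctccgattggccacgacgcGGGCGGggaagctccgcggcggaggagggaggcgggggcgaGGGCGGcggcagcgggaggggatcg

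The CLDN11 window holds 1 match to GGGCGG, which begins at base -236 from the gene start, and has 71.2% G and C. In the CDH2 window, with 74.4% G and C, there are 5 matches, the first 3 of which begin at bases -141, -135 and -131, where the last overlaps the one before it. At least 1 match to GGGCGG, in either direction, is found in 44.5% of all 20651 pig windows of the same length. The letters ACAAAG and AACAAT, which belong to the core that SOX factors bind, AGATAA, bound by GATA factors, and TATAAA were searched on both strands as well. They occur in 12.4%, 7.47%, 8.63% and 10.4% of all windows, and none of these letters is in the CLDN11 or the CDH2 window.

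Each cell type was compared with all other cells of the same animals, on counts summed per animal, by the edgeR quasi-likelihood test with Benjamini-Hochberg adjustment over all genes. This main test did not pair the sums of an animal. A fit with the animal as a block was an alternative. In cattle Sertoli-like cells 2 of 6 members were higher, while 33% of the 14202 genes tested were called, 13.6% higher and 19.3% lower (1174 higher and 3962 lower against 1936 and 2746, when totals alone set the scale). In pig Sertoli-like cells 2 of 6 members were higher and 1 was lower, and of 15216 genes 25.5% were called, 10.2% higher and 15.3% lower (909 and 3564 genes in place of 1554 and 2321, by totals alone). In cattle germ-like cells 2 members were higher and 4 lower, while 49.9% of all genes were called, 23.1% higher and 26.7% lower (6253 and 1826 in place of 3286 and 3795, by totals alone). In pig germ-like cells 1 was higher and 2 were lower, while 37.3% of all genes were called, 16.9% higher and 20.4% lower (3605 and 2283 in place of 2577 and 3099). In cattle endothelial-like cells 3 members were higher and 2 lower, where 4.34% of all genes were called, 2.18% higher and 2.16% lower (424 and 243 in place of 310 and 307). In pig endothelial-like cells 1 of 6 members was higher, where 7.14% of 15013 genes were called, 5.03% higher and 2.11% lower (644 and 577 in place of 755 and 317). The median log2 fold change of the members was 1.30 in Sertoli-like cells of cattle and 0.53 in those of pig, where that of all genes was -0.16 and -0.17. The log2 TMM factors of germ-like sums lay above those of the other cells by a mean of 1.14 in cattle and 0.36 in pig, which lowers their fold changes. For Sertoli-like sums the difference was -0.38 in cattle and -0.37 in pig, which raises their fold changes. A fold change is therefore relative to this shift.

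**Figure D1:**
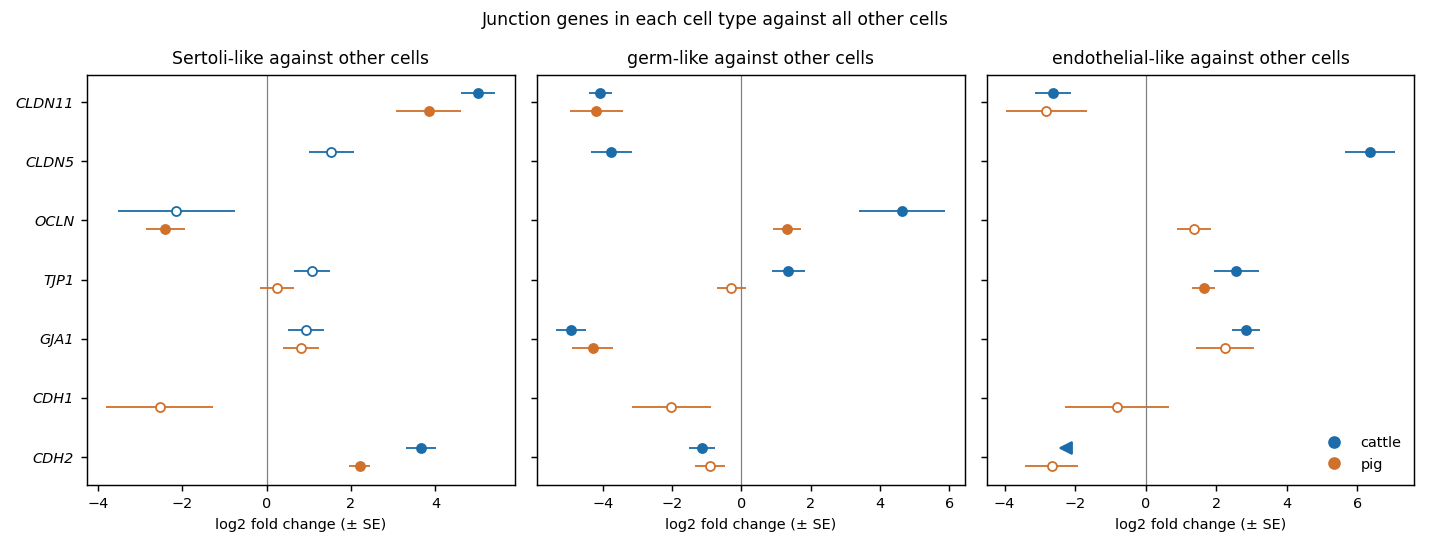
Log2 fold change (x axis, ± SE) of each member (rows) in Sertoli-like, germ-like and endothelial-like cells against all other cells of the same animals, for 3 cattle and 3 pigs (2 pigs for endothelial-like cells). Filled points passed an adjusted p of 0.05 and open points did not. The triangle marks CDH2 in cattle endothelial-like cells, which had 0 UMIs, at its limit of -2.25. CLDN11 and CDH2 lie to the right in Sertoli-like cells of both species, and CLDN11 and GJA1 lie to the left in germ-like cells of both.

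CLDN11 (ENSBTAG00000019060 in cattle, ENSSSCG00000011747 in pig), the claudin on which the tight junctions between Sertoli cells depend, was the member that set Sertoli-like cells apart by most in both species. In cattle Sertoli-like cells it stood at 381, 304 and 574 CPM in animals 1, 2 and 3, from 251, 1879 and 5396 UMIs. The other cells of the same animals had 17.3 ± 5.98 CPM (SD, n = 3), and the groups did not overlap. The log2 fold change was 5.01 (SE 0.41, adjusted p = 9.3e-05), higher in 3 of 3 animals. In pig Sertoli-like cells CLDN11 stood at 615, 1379 and 1382 CPM, against 104 ± 115 CPM in the other cells (SD, n = 3). Here the log2 fold change was 3.84 (SE 0.78, adjusted p = 0.0093), again higher in 3 of 3 animals. Without pig 3 it was 3.22, with an adjusted p of 0.066.

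To place each cell type in an order, all pairs of types were compared in 1 fit per species, in which between 6.21% and 52.4% of 14179 genes in cattle and between 4.3% and 40.7% of 15151 in pig were called for a pair. Outside Sertoli-like cells, CLDN11 in cattle lay between 5.64 and 55.2 CPM in every type and animal. Endothelial-like cells came next in the order, at 55.2, 14.5 and 28.1 CPM, and lay below Sertoli-like cells by 4.65 on the log2 scale (adjusted p = 3.1e-07, with 15.6% of genes called for this pair). Of the 6 types below Sertoli-like cells, no neighbours in the order differed beyond their spread. Empty droplets of cattle, barcodes of at most 50 UMIs, held more CLDN11 than any of these 6 types, at 66.0, 66.4 and 124 CPM. In germ-like cells CLDN11 was lower than in the other cells, at a log2 fold change of -4.07 in cattle (SE 0.34, adjusted p = 2.6e-05) and -4.19 in pig (SE 0.77, adjusted p = 0.0039). These other cells hold the Sertoli-like cells. Compared directly, germ-like cells of cattle differed from no type outside Sertoli-like cells (adjusted p of 0.17 to 0.49). Those of pig lay below lymphocyte-like cells by 2.94 (adjusted p = 0.013, with 15.2% of genes called) and myoid-like cells by 2.84 (adjusted p = 0.0064, 32.7%). They did not differ from the remaining types outside Sertoli-like cells. Against all other cells CLDN11 was also lower in endothelial-like cells of cattle (-2.64, SE 0.51, adjusted p = 0.012), though not without cattle 2 (adjusted p = 0.16) or cattle 3 (0.088). Compared directly, endothelial-like cells of cattle differed from no type outside Sertoli-like cells. In pig the endothelial-like value was -2.81 (SE 1.15, adjusted p = 0.18), or -2.50 with the animal as a block (adjusted p = 4.1e-13). That block fit rests on 2 pigs, which leave little from which to estimate the spread between animals. In simulated counts false calls were mostly more frequent with the block. Those counts were drawn without an effect of the animal, so they cannot decide between the 2 fits for paired sums. Here and below, a value with the block does not replace the main test.

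In pig, by contrast, CLDN11 was found at higher levels outside Sertoli-like cells, and most of all in pig 2. Its lymphocyte-like cells had 892 CPM, against 163 in pig 1 and 27.9 in pig 3, and its myoid-like cells had 549 CPM, against 72.8 and 93.7. In the testis both cell types lie outside the barrier. Lymphocyte-like cells came next to Sertoli-like cells in the order, 2.39 lower on the log2 scale (adjusted p = 0.044, with 13.2% of genes called). Their sums hold only 21 cells in pig 1 and 22 in pig 2, where the 892 CPM are 88 UMIs. The lymphocyte markers came to 3652 to 6175 CPM in lymphocyte-like cells of the 3 pigs. That is less than their Sertoli markers in pigs 1 and 2, at 8540 and 11965 CPM, so their place in the order is not secure. The Sertoli markers moved with these CLDN11 levels. Their summed level was 23927 to 37584 CPM in Sertoli-like cells of pig, 733 to 11965 in lymphocyte-like and 2005 to 9223 in myoid-like cells, with the highest of both in pig 2. Of the 10 markers, 7 had UMIs in lymphocyte-like cells and 9 in myoid-like cells, with AARD at 0 in both, as in Sertoli-like cells, and AMH and FSHR at 0 in lymphocyte-like cells. Their part in the CLDN11 level of these types was not tested. Within a pig, CLDN11 kept close to one ratio with these markers in every named cell type. In pig 1 it made up 1.64% of the Sertoli marker UMIs in Sertoli-like cells and 1.43% to 2.01% in the other types. In pig 2 the value was 5.76%, with 4.53% to 7.46% elsewhere, and in pig 3 it was 4.19%, with 3.57% to 5.71% elsewhere. The ratios of pig 1 all lay below those of the other pigs, whose ranges overlapped. In cattle the ratio was less even, at 2.57%, 3.36% and 6.97% in Sertoli-like cells of animals 1, 2 and 3. Over the other named types it was 0.573% to 6.25% in cattle 1, 0.622% to 3.41% in cattle 2 and 1.25% to 4.21% in cattle 3. Some of these ratios rest on few UMIs. The 6.25% is 1 CLDN11 UMI beside 16 marker UMIs in endothelial-like cells. In pig 1 the 1.43% is 1 beside 70 in myoid-like and 4 beside 279 in macrophage-like cells.

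The ratio of CDH2 to the same markers was not held in this way. In germ-like cells CDH2 UMIs came to 2.11%, 3.10% and 15.4% of the Sertoli marker UMIs in pigs 1, 2 and 3, against 0.258%, 0.528% and 0.445% in Sertoli-like cells. In cattle it came to 2.96%, 6.06% and 7.08% in germ-like cells and 0.492%, 1.42% and 1.27% in Sertoli-like cells. The ratio was higher in germ-like cells in all 6 animals.

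**Figure D2:**
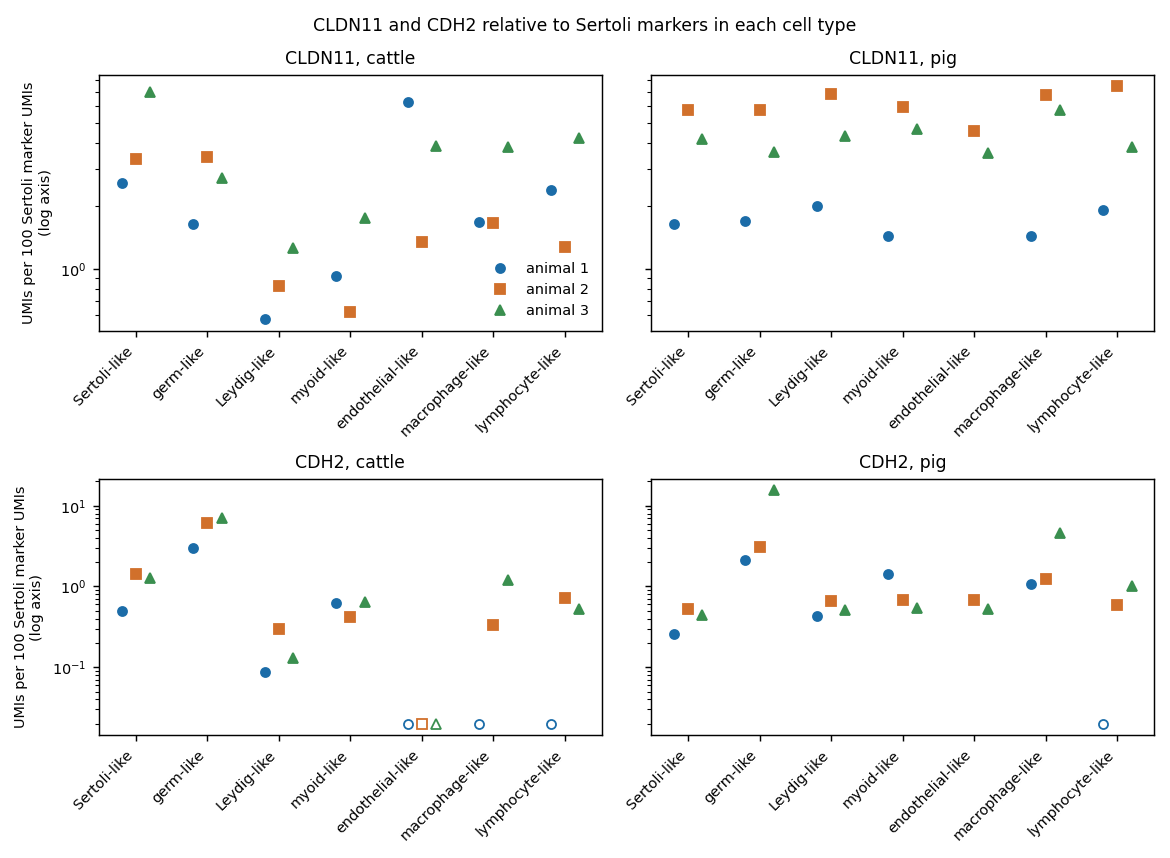
UMIs of CLDN11 (top) and CDH2 (bottom) per 100 UMIs of the Sertoli markers (y axis, log scale) in each named cell type of cattle (left) and pig (right), with 1 point per animal. Open points at the bottom stand for 0 UMIs. In pig the CLDN11 points of an animal lie nearly level across types, and the CDH2 points lie highest in germ-like cells of both species.

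As depth differed between animals, the expected share of cells with a CLDN11 UMI after thinning each cell to 500 UMIs was computed too, leaving out 24 of the 4200 cattle Sertoli-like cells and none in pig. It was then 17.6% ± 4.62 of Sertoli-like cells in cattle (SD, n = 3) and 41.5% ± 13.1 in pig, and 55.8% ± 25.9 and 80.4% ± 32.6 without thinning. In germ-like cells the thinned share was 1.08% ± 0.125 in cattle and 2.14% ± 1.75 in pig, at 12.7% ± 8.30 and 25.5% ± 26.5 without thinning. The spread between cattle Sertoli-like clusters followed the animals. The cluster of 474 cells that came to 99.8% from cattle 1 had 380 CPM of CLDN11, the one that came to 95.4% from cattle 2 had 306, and the one that came to 87.8% from cattle 3 had 568. In pig a small cluster of 83 Sertoli-like cells led by the division genes UBE2C and TOP2A had 864 CPM.

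CLDN5 (ENSBTAG00000022020), best known as the claudin that seals the endothelium of the brain, was the most endothelial of the members in cattle, the species in which it is listed. Endothelial-like cells of cattle 1, 2 and 3 had 827, 1666 and 1335 CPM, from 15, 230 and 285 UMIs. The other cells had 12.4 ± 10.3 CPM (SD, n = 3), and every endothelial-like sum lay above every other sum. The log2 fold change was 6.36 (SE 0.70, adjusted p = 0.00029), higher in 3 of 3 animals. After thinning to 500 UMIs, 41.3% ± 10.1 of endothelial-like cells had a CLDN5 UMI (70.5% ± 31.9 without thinning), and 1.55% ± 0.965 of Sertoli-like cells (7.98% ± 4.70 without thinning).

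Sertoli-like cells came second in the order for CLDN5, at 22.8, 59.6 and 17.5 CPM. They lay 4.6 below endothelial-like cells on the log2 scale (adjusted p = 4.0e-08) and 3.93 above myoid-like cells (adjusted p = 8.1e-07, with 29.3% of genes called for this pair). No neighbours among the remaining types differed. Against all other cells together, which include the endothelial-like cells, Sertoli-like cells were at a log2 fold change of 1.54 (SE 0.54, adjusted p = 0.055), which did not pass. With the animal as a block it was 1.36 with an adjusted p of 2.0e-10, and it also passed with DESeq2 (0.045) and with no low-count filter (0.037). The empty droplets held 7.88, 31.7 and 28.9 CPM, so that the level in Sertoli-like cells was higher than in the empty droplets of animals 1 and 2 and lower than in those of animal 3. In germ-like cells CLDN5 was lower than in the other cells, at 3.41, 4.61 and 3.22 CPM. The log2 fold change was -3.75 (SE 0.59), with an adjusted p of 0.00068. These other cells hold the endothelial-like and Sertoli-like cells. Compared directly, germ-like cells differed from none of the remaining types (adjusted p of 0.56 to 0.98).

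OCLN (ENSBTAG00000000561 in cattle, ENSSSCG00000021514 in pig) encodes occludin, a transmembrane strand protein of tight junctions, and it was scarce in Sertoli-like cells. Cattle cells of named types held 26 OCLN UMIs in all, of which 22 were in germ-like cells. Germ-like cells had 20.5, 3.07 and 3.22 CPM in cattle 1, 2 and 3, from 6, 4 and 12 UMIs, against 0.241 ± 0.360 CPM in the other cells (SD, n = 3). The log2 fold change was 4.63 (SE 1.24, adjusted p = 0.012), and it no longer passed without cattle 2 (adjusted p = 0.067) or cattle 3 (0.085). In Sertoli-like cells 1, 0 and 1 UMIs were counted. At this depth the value of -2.14 (SE 1.39, adjusted p = 0.27) could not be told from 0.

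In pig, where the gene was better covered, the order for OCLN was led by endothelial-like cells at 28.3 and 14.1 CPM in pigs 2 and 3. Germ-like cells had 12.8, 23.0 and 17.5 CPM in pigs 1, 2 and 3, and Leydig-like cells 11.4, 11.2 and 2.57. These types did not differ from their neighbours in the order. Sertoli-like cells had 0.914, 2.43 and 1.81 CPM, from 1, 25 and 2 UMIs, and all 3 lay below every germ-like value. Compared directly, germ-like cells lay 2.68 above them on the log2 scale (SE 0.51), where 40.7% of genes were called for the pair. Against all other cells, OCLN was lower in Sertoli-like cells by a log2 fold change of -2.40 (SE 0.47, adjusted p = 0.0080), in 3 of 3 animals. The adjusted p was 0.067 without pig 2 and 0.079 without pig 3. Of the 445 OCLN UMIs of these other cells, germ-like cells held 307 and endothelial-like cells 95. Compared directly, Sertoli-like cells also lay below endothelial-like cells (adjusted p = 1.8e-05, with 19.4% of genes called). They differed from none of the remaining types (adjusted p of 0.064 to 0.71). In germ-like cells OCLN was higher than in all other cells, at 1.32 (SE 0.39, adjusted p = 0.027), in 3 of 3 animals. This call was lost without any one of pigs 1, 2 and 3 (adjusted p = 0.062, 0.12 and 0.11). In endothelial-like cells the value was 1.38 (SE 0.48, adjusted p = 0.14; 0.0030 with the animal as a block).

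Within the pig germ-like cells, OCLN differed from cluster to cluster. It was at 32.0 CPM in a cluster of 207 cells led by ELAVL2 and PAGE4 and at 26.8 in one of 358 cells led by UCHL1. The largest cluster, of 529 cells, had 7.66 CPM and one of 369 cells 13.5. A cluster of 100 cells led by TEX101, PHF7 and LY6K had 0 OCLN UMIs, for which the upper 95% Poisson limit was 6.01 CPM. These are single sums over cells of several animals, with no test.

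TJP1 (ENSBTAG00000015398 in cattle, ENSSSCG00000004854 in pig) encodes ZO-1, the scaffold protein that links claudins and occludin to actin. In Sertoli-like cells of either species it was not higher beyond the spread than in all other cells together. In cattle it was at 17.1, 21.5 and 11.5 CPM in germ-like cells and at 3.04, 4.69 and 7.24 CPM in Sertoli-like cells, without overlap. Germ-like cells were higher than all other cells, by 1.35 on the log2 scale (SE 0.48, adjusted p = 0.039), in 3 of 3 animals, with an adjusted p of 0.32 without cattle 2 and 0.053 without cattle 3. Germ-like and Sertoli-like cells compared directly differed by 0.76 (SE 0.53, adjusted p = 0.24, with 49.5% of genes called for the pair), which did not pass. Myoid-like cells lay below Sertoli-like cells by 1.77 (adjusted p = 0.017, with 29.3% of genes called). Lymphocyte-like and macrophage-like cells, with 0 or 1 UMIs per animal, were lower too (adjusted p = 0.0025 and 0.010, with 26.3% and 23.1% called). Leydig-like and endothelial-like cells did not differ from Sertoli-like cells. In endothelial-like cells the counts were small, 0, 2 and 9 UMIs, or 0, 14.5 and 42.1 CPM. The log2 fold change of 2.57 (SE 0.65, adjusted p = 0.046) was higher in 2 of 3 animals, and was 1.49 with an adjusted p of 0.73 without cattle 3 and 0.063 without cattle 2. The Sertoli-like value of 1.07 (SE 0.43) had an adjusted p of 0.085, or 0.0017 with the animal as a block and 0.025 without cattle 1.

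In pig TJP1 was highest in endothelial-like cells, at 188 and 142 CPM in pigs 2 and 3. The other cells of these pigs had 63.9 ± 19.5 CPM (SD, n = 2), and the log2 fold change was 1.64 (SE 0.33, adjusted p = 0.043), in 2 of 2 animals. By totals alone the adjusted p was 0.065, and with no low-count filter it was 0.096. Sertoli-like cells had 41.2, 73.1 and 65.2 CPM and germ-like cells 34.8, 96.2 and 60.4. Against all other cells these came to 0.25 (SE 0.41, adjusted p = 0.69) and -0.29 (SE 0.42, adjusted p = 0.61). Neither passed, and both changed sign when totals alone set the scale. Endothelial-like cells lay 1.42 above Sertoli-like cells in the fit of all pairs (adjusted p = 0.024, with 19.4% of genes called). Of the other types, macrophage-like cells alone differed from Sertoli-like cells, and lay below them by 2.49 (adjusted p = 0.0012, with 23.5% called).

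**Figure D3:**
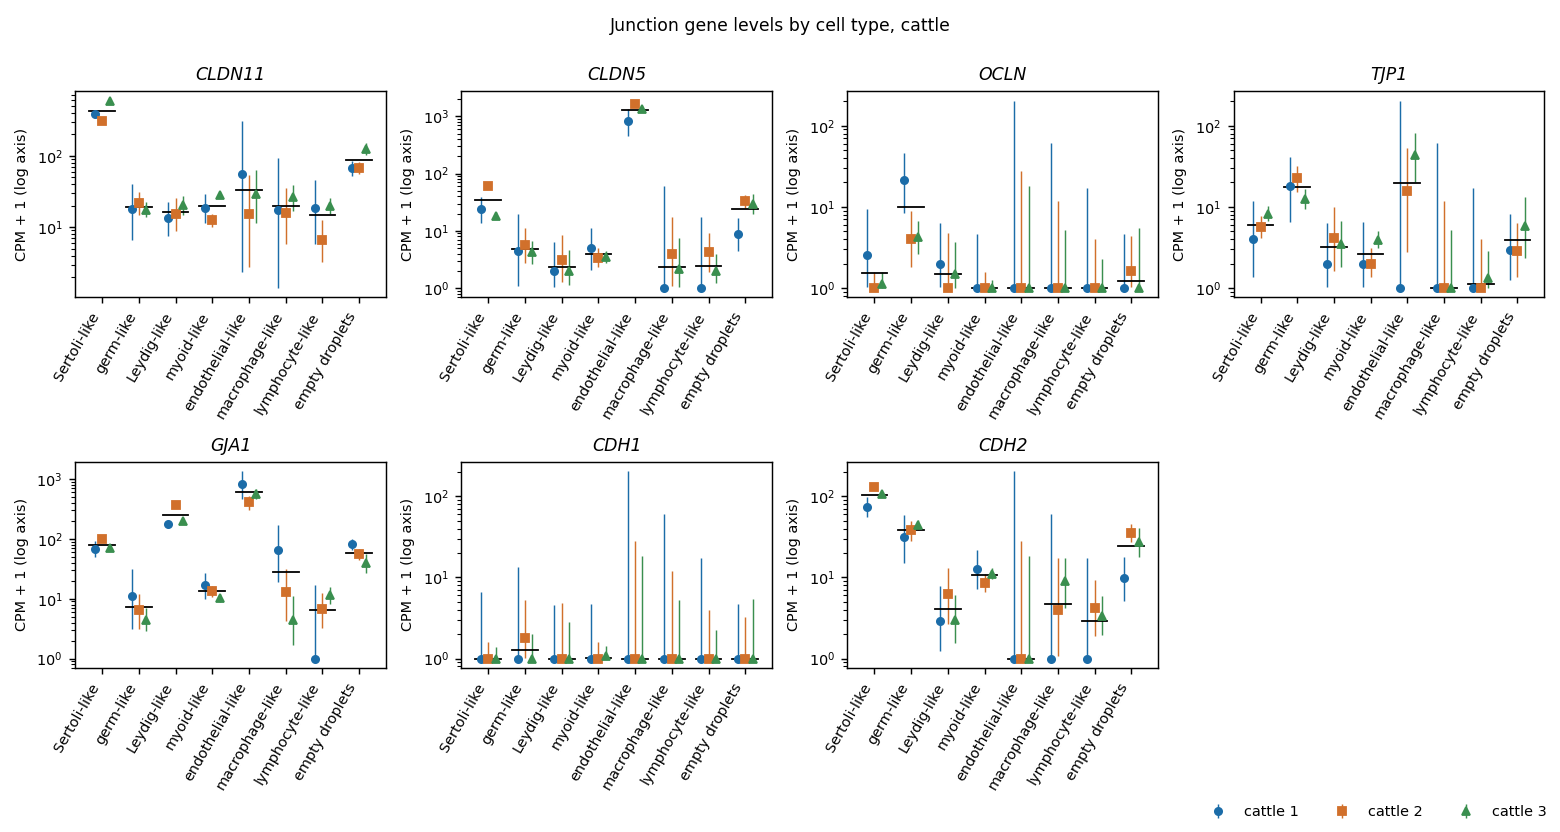
Level of each member in cattle (CPM + 1, log axis) by cell type and in empty droplets of at most 50 UMIs. Each point is the sum of 1 animal with its exact 95% Poisson interval, which covers counting error only, and the black line is the mean. CLDN11 and CDH2 are highest in Sertoli-like cells, CLDN5 and GJA1 in endothelial-like cells, and CDH1 is near 0 throughout.

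GJA1 (ENSBTAG00000001835 in cattle, ENSSSCG00000004241 in pig) encodes connexin 43, the main gap junction protein of the testis, through which small molecules pass between coupled cells. In cattle it was at 827, 406 and 567 CPM in endothelial-like cells of animals 1, 2 and 3, and at 178, 374 and 200 CPM in Leydig-like cells, the steroid-producing cells between the tubules. These leading types did not differ beyond their spread (log2 difference 0.33, SE 0.42, adjusted p = 0.78, with 10.5% of genes called for the pair). Sertoli-like cells followed with 66.8, 97.1 and 70.7 CPM, below Leydig-like cells by 1.78 (adjusted p = 0.0021, with 19.8% of genes called) and above macrophage-like cells by 3.15 (adjusted p = 0.00027, with 23.1%). Germ-like cells had 10.2, 5.38 and 3.48 CPM. Empty droplets held 80.8, 54.2 and 38.5 CPM, above the Sertoli-like level in cattle 1 and below it in cattle 2 and 3.

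Against all other cells, GJA1 in cattle was higher in endothelial-like cells by 2.84 (SE 0.39, adjusted p = 0.0014) and lower in germ-like cells, at -4.92 (SE 0.42, adjusted p = 2.9e-05), each in 3 of 3 animals. In Sertoli-like cells the value of 0.94 (SE 0.42, adjusted p = 0.12) did not pass, and it was higher in 2 of 3 animals. Here cattle 1 decided the call, since without it the value was 1.61 with an adjusted p of 0.0063. With the animal as a block it was 1.18, with an adjusted p of 1.6e-08. Compared directly, GJA1 in germ-like cells of cattle did not differ from macrophage-like cells (adjusted p = 0.096, with 36.5% of genes called). It was lower than in each of the remaining types (highest adjusted p 0.029, with 24.3% to 52.4% of genes called for these pairs).

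In pig Leydig-like and endothelial-like cells had the highest mean levels of GJA1 as well, but compared directly with Sertoli-like cells neither passed, with adjusted p of 0.16 for Leydig-like cells (14% of genes called for the pair) and 0.22 for endothelial-like cells (19.4% called). Leydig-like cells had 231, 210 and 128 CPM, endothelial-like cells 174 and 118 in pigs 2 and 3, and Sertoli-like cells 48.5, 88.7 and 62.5. Germ-like cells had 8.34, 8.16 and 1.65 CPM and were lower than the other cells, at -4.29 (SE 0.60, adjusted p = 0.0015), in 3 of 3 animals. Compared directly, they did not differ from macrophage-like cells (adjusted p = 0.87, with 31.9% of genes called) or lymphocyte-like cells (0.25, 15.2%). They lay below each of the remaining types (highest adjusted p 0.0085). Against all other cells the Sertoli-like value was 0.82 (SE 0.43, adjusted p = 0.18), or 0.92 with an adjusted p of 0.0079 with the animal as a block. The endothelial-like value was 2.25 (SE 0.83, adjusted p = 0.15), or 2.77 with an adjusted p of 5.2e-13 with the block. This block fit rests on 2 pigs and does not replace the main test. Thinned to 500 UMIs, 12.2% ± 4.95 of Leydig-like cells in cattle and 9.07% ± 2.16 in pig had a GJA1 UMI (SD, n = 3), against 0.338% ± 0.148 and 0.353% ± 0.220 of germ-like cells. Without thinning 36.9% ± 19.1 and 36.9% ± 17.8 of the Leydig-like cells did, and 4.27% ± 1.48 and 5.66% ± 5.29 of the germ-like cells.

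CDH2 (ENSBTAG00000021190 in cattle, ENSSSCG00000003722 in pig) is N-cadherin, the adherens junction protein of contacts between Sertoli cells and between Sertoli and germ cells. It was at 72.9, 128 and 105 CPM in Sertoli-like cells of cattle 1, 2 and 3, against 10.9 ± 2.50 CPM in the other cells (SD, n = 3). The groups did not overlap, and the log2 fold change was 3.66 (SE 0.35, adjusted p = 0.00016), higher in 3 of 3 animals. In pig the Sertoli-like cells had 96.9, 126 and 147 CPM, against 34.4 ± 4.33 in the other cells (SD, n = 3). The log2 fold change was 2.21 (SE 0.25, adjusted p = 0.0024), in 3 of 3 animals, and it passed with any one animal left out in either species.

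Germ-like cells came second for CDH2 in cattle, and in pig too except by totals alone, where myoid-like cells did. They stood at 30.7, 36.9 and 43.4 CPM in cattle and 37.3, 39.3 and 45.3 CPM in pig. Between the germ-like clusters of pig CDH2 ranged from 65.1 CPM in that of 529 cells to 4.89 in that of 100 cells led by TEX101. These are single sums with no test. Germ-like cells lay below Sertoli-like cells by 2.21 on the log2 scale in cattle (adjusted p = 1.8e-05) and by 1.95 in pig (adjusted p = 0.0015). In cattle they lay above the next type, myoid-like cells, by 1.47 (adjusted p = 0.0017, with 52.4% of genes called), and in pig the types below them did not differ from their neighbours. Against all other cells, which hold the Sertoli-like cells, the germ-like value in cattle was -1.13 (SE 0.38, adjusted p = 0.031), but by totals alone it was -0.02 with an adjusted p of 0.97, and so did not pass. It was also lost without cattle 2 (adjusted p = 0.33) or cattle 3 (0.12). In pig it was -0.91 (SE 0.44, adjusted p = 0.13), and -1.39 with an adjusted p of 0.034 without pig 3. Empty droplets of cattle held 8.87, 34.7 and 26.5 CPM.

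No CDH2 UMI was counted in the 135 endothelial-like cells of cattle, where the other cells had 38.6 ± 16.7 CPM (SD, n = 3). Against a floor of 3 counts over the 3 sums, which is 8.12 CPM, CDH2 was at least 4.76-fold lower there (adjusted p = 0.029), a call that was lost without cattle 2 (adjusted p = 0.074) or cattle 3 (0.065). In cattle 1 a single UMI of the endothelial-like sum is worth 55.2 CPM, more than the 21.3 CPM of the other cells, so a 0 in that animal shows no difference. Of the 2278 CDH2 UMIs of the other cells, Sertoli-like cells held 1824. Compared directly, endothelial-like cells of cattle lay below Sertoli-like cells (adjusted p = 1.7e-06, with 15.6% of genes called) and germ-like cells (0.00098, 24.3%). They differed from none of the remaining types (adjusted p of 0.068 to 0.34). In the 2 pigs with endothelial-like cells CDH2 was at 15.4 and 2.98 CPM, with a log2 fold change of -2.66 (SE 0.76, adjusted p = 0.093). With the animal as a block the adjusted p was 1.8e-11, from the same 2 pigs, which does not replace the main test.

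CDH1 (ENSBTAG00000015991 in cattle, ENSSSCG00000025652 in pig), the E-cadherin of epithelia, was hardly detectable. Cattle cells held 2 CDH1 UMIs, 1 in a germ-like and 1 in a myoid-like cell. Pig cells held 53, of which 0, 2 and 31 were in the macrophage-like cells of pigs 1, 2 and 3, at 0, 7.07 and 15 CPM. Compared directly, macrophage-like cells were higher than Sertoli-like cells, which held 2 UMIs (adjusted p = 3.6e-05, with 23.5% of genes called for the pair), and germ-like cells, which held 9, lay below macrophage-like cells at -4.77 on the log2 scale (SE 0.82, adjusted p = 2.2e-05, 31.9% called). Macrophage-like cells of pig 3 carry most of these counts, and the pairs were not refitted without it. Against all other cells, the Sertoli-like value in pig was -2.53 (SE 1.27, adjusted p = 0.16) and the germ-like value -2.02 (SE 1.15, adjusted p = 0.19), neither of which could be told from 0 at this depth.

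**Figure D4:**
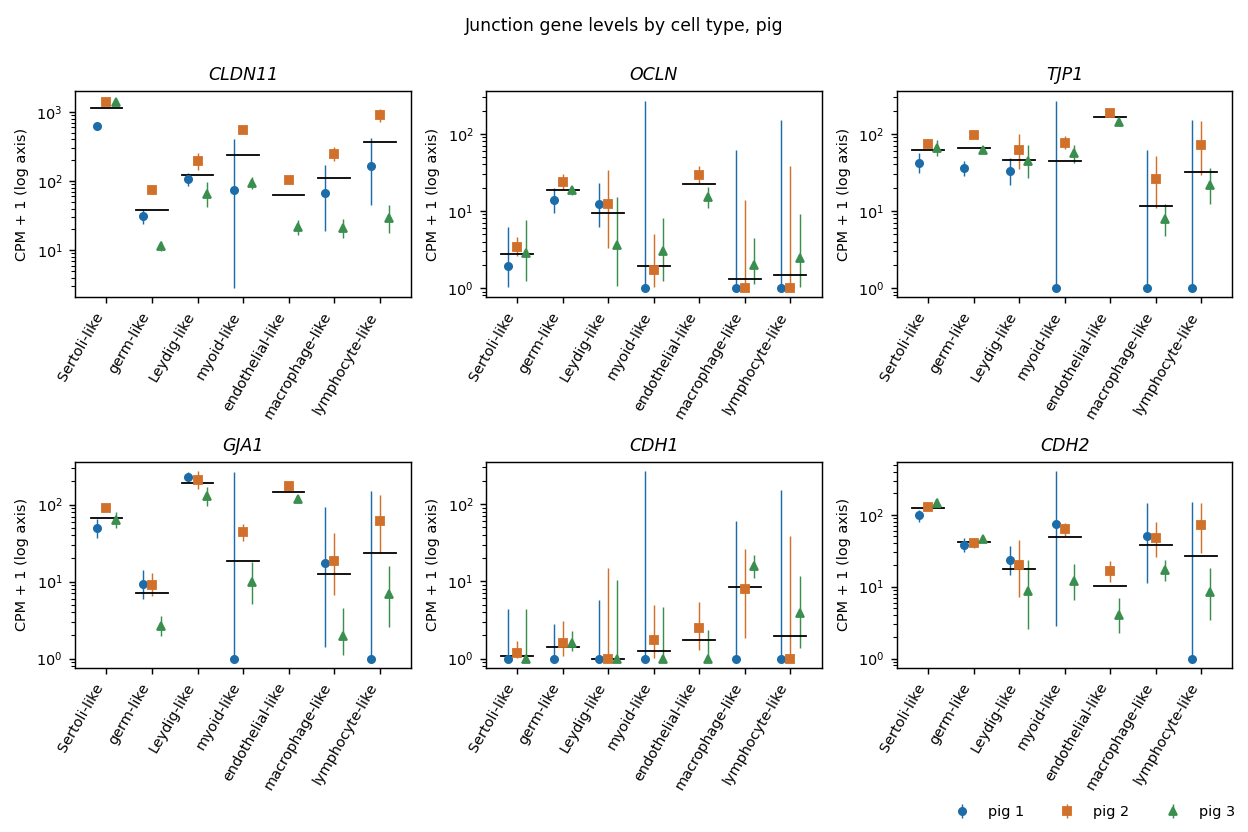
Level of each member listed in pig (CPM + 1, log axis) by cell type. Each point is the sum of 1 animal with its exact 95% Poisson interval, which covers counting error only, and the black line is the mean. CLDN11 is highest in Sertoli-like cells, with pig 2 above pigs 1 and 3 in lymphocyte-like and myoid-like cells, and OCLN is lower in Sertoli-like than in germ-like cells.

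An interaction term between species and cell type asked whether the Sertoli-like effect differed, for the 12769 symbols shared by the gene tables that passed the count minimum, of which 11.7% differed. Of the 6 members tested, CDH2 alone differed, with an effect larger in cattle than in pig by 1.46 on the log2 scale (SE 0.41, adjusted p = 0.030). The level in Sertoli-like cells was 102 ± 27.7 CPM in cattle and 123 ± 25.0 in pig (SD, n = 3), and the other cells were 10.9 ± 2.50 and 34.4 ± 4.33. Of the CDH2 UMIs of these other cells, germ-like cells held 219 of 454 in cattle and 734 of 1045 in pig. The call held without cattle 1, and was lost without any other one of the 6 animals, with adjusted p of 0.069 to 0.20. CLDN11 had a difference of 1.16 (SE 0.84, adjusted p = 0.44), TJP1 of 0.85 (SE 0.59, adjusted p = 0.42) and GJA1 of 0.10 (SE 0.63), while OCLN had 0.29 (SE 2.09) and CDH1 0.30 (SE 0.75). None of these passed.

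The wider set of junction genes, 120 symbols in 7 families beside the members, of which 107 are listed in cattle and 109 in pig, split by family in Sertoli-like cells. Of 73 tested in cattle, 19 were higher and 19 lower, with a median log2 fold change of -0.57, where the median of all genes was -0.16. Of 79 tested in pig, 24 were higher and 13 lower, with a median of 0.20 against -0.17 for all genes. Among all genes tested, 13.6% were higher and 19.3% lower in cattle, and 10.2% and 15.3% in pig. The splits of the junction genes moved to 14 higher and 27 lower in cattle and 16 and 16 in pig when totals alone set the scale. Of the scaffold and polarity genes, 6 were higher and 1 lower of 15 in cattle and 6 and 1 of 17 in pig, but by totals alone 4 and 3 in cattle, with a median that changed sign from 0.45 to -0.03, and 5 and 3 in pig. Catenins and the nectin complex had 6 higher and 2 lower of 14 in cattle, and 7 and 2 of 17 in pig, or 5 and 2 and 3 and 2 by totals alone. Other cadherins went the other way under both scales, with 6 of 9 lower in cattle and 6 of 13 lower in pig, where 2 were higher. Of the other claudins, 2 were higher and 3 lower of 8 in cattle, or 0 and 4 by totals alone, and 2 of 7 were lower in pig. Other tight junction membrane proteins had 3 higher and 3 lower of 11 in cattle, or 3 and 4 by totals alone, and 4 and 1 of 8 in pig, or 3 and 2. Connexins beside GJA1 had 1 of 8 lower in cattle, and 2 of 9 higher and 1 lower in pig. Desmosome genes had 2 higher and 3 lower of 8 in cattle and 3 higher of 8 in pig.

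The leading genes of that set in cattle Sertoli-like cells were ESPN, an actin-bundling protein of the ectoplasmic specialization, at a log2 fold change of 4.70 (SE 0.34, adjusted p = 6.8e-05), and ILDR2, of the family of tricellular tight junction proteins, at 4.18 (SE 0.41, adjusted p = 0.00016). ILDR2 was among the leading genes in pig too, at 3.25 (SE 0.60, adjusted p = 0.0066), with 72.2 ± 24.6 CPM against 9.91 ± 9.74 (SD, n = 3). GJB1, the connexin 32 gene, led in pig at 4.06 (SE 0.92, adjusted p = 0.014), from 19 UMIs in Sertoli-like cells and 4 in the others. CLDN19 and PKP3 in cattle and CLDN18 and CLDN1 in pig had 0 UMIs in Sertoli-like cells and passed as lower. CLDN19 was at least 4.6-fold and PKP3 at least 4.27-fold lower, and in pig CLDN18 at least 19.5-fold and CLDN1 at least 16.7-fold, against a floor of 3 counts over the group. The other cells in these comparisons include the germ-like cells. In cattle germ-like cells held 31 CLDN19 and 32 PKP3 UMIs, and all cells but germ-like held 1 of each. In pig germ-like cells held 142 CLDN18 UMIs, and all cells but germ-like held 6. The low values of CLDN19, PKP3 and CLDN18 are therefore not particular to Sertoli-like cells. For CLDN1 in pig, the counts by cell type are not given here.

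In germ-like cells of cattle 24 of 73 of these genes were higher and 21 lower, and in pig 16 of 79 were higher and 26 lower, or 41 and 9 in cattle and 20 and 22 in pig by totals alone. Of all genes tested, 23.1% were higher and 26.7% lower in cattle, and 16.9% and 20.4% in pig. The counts by family below are to be read beside these shares. CLDN19 and PKP3 led upward in cattle, both at 6.49, with 31 and 32 UMIs in germ-like cells and 1 in the others. In pig CLDN18 was among the leading genes upward, at 4.95, with 142 UMIs in germ-like cells and 6 in the others. Downward, the connexin GJC3 had 0 UMIs in germ-like cells of cattle against 78 in the others, at least 2.57-fold lower (adjusted p = 0.0085), followed by CDH11 at -4.52. In pig the connexin GJB1 had 0 UMIs against 23, at least 5.2-fold lower (adjusted p = 0.019), followed by CDH5, the cadherin of endothelium, at -5.37. Of the catenins and the nectin complex 8 of 14 were lower in cattle and 10 of 17 in pig, where totals alone gave 6 and 9, and of the other cadherins 5 of 9 were higher in cattle and 6 of 13 in pig, where totals alone gave 6 and 6. In endothelial-like cells of pig the leading genes were ESAM and CDH5, both endothelial adhesion molecules, at 6.12 and 6.07 (adjusted p = 0.0026 for each), and in cattle PARD6G at 4.75 (adjusted p = 7.9e-05) and PRKCZ at 2.56 (adjusted p = 0.016), both of the PAR polarity complex. LSR, a tricellular junction protein, was lower in both, at -4.19 and -3.08. Of the 73 tested in cattle, 33 had 0 UMIs on one side of the endothelial-like comparison.

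**Figure D5:**
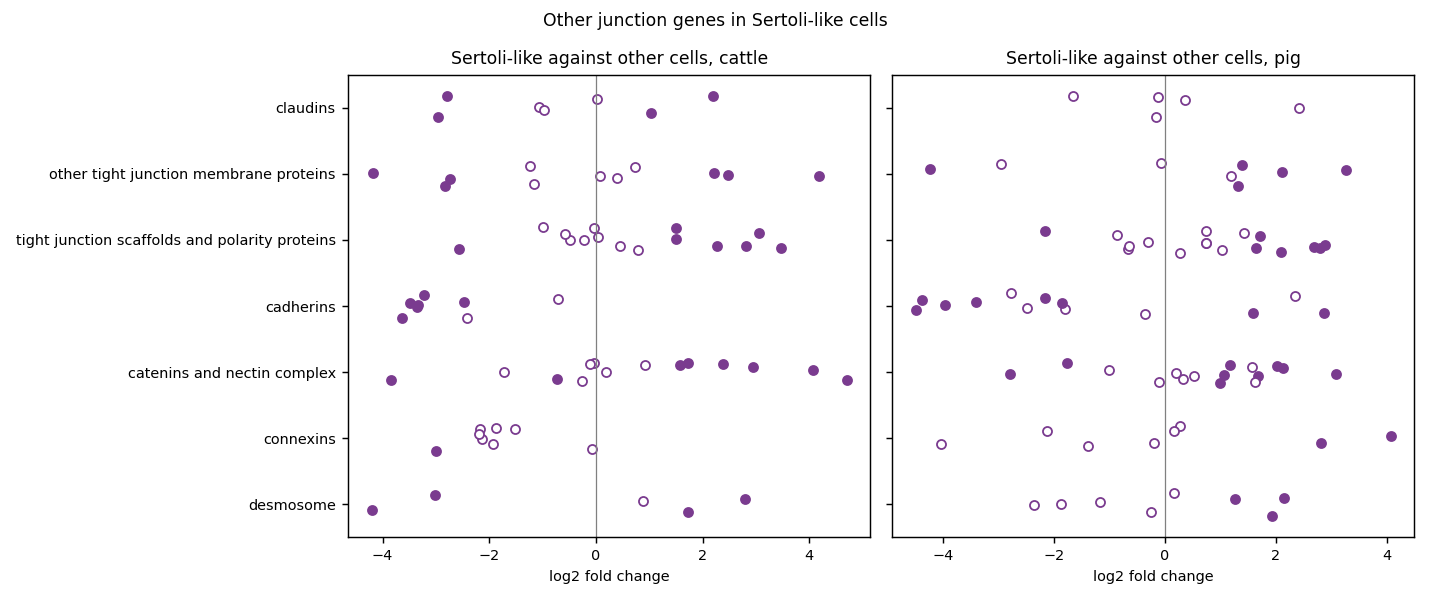
Log2 fold change (x axis) of the other junction genes in Sertoli-like cells against all other cells, by family (rows), in cattle (left) and pig (right), with 1 point per gene and 3 animals per species. Filled points passed an adjusted p of 0.05, open points did not, and genes with 0 UMIs on one side are left out. In both species scaffolds and catenins hold most filled points on the right and other cadherins on the left, on the TMM scale; by totals alone 4 scaffold genes in cattle were higher and 3 lower.

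The genes whose levels ran most like those of a member were taken by Pearson r of log2(CPM + 10) over the sums of animals and cell types, 21 in cattle and 20 in pig, which share libraries and depth. For CLDN11 these were TTYH1 (r = 0.985) and SLC52A3 (0.962) in cattle and CST9L (0.969) and SERPINA5 (0.956) in pig, besides 1 gene without a symbol in each. For CLDN5 they were EFNA1 (0.98), RALB (0.975) and S100A1 (0.965). For CDH2 they were CUBN (0.962), FHOD3 (0.962) and VILL (0.960) in cattle and WIPF3 (0.893), CA3 (0.874) and RNF14 (0.868) in pig. GJA1 ran with STC1 (0.832), F11R (0.824) and CD151 (0.821) in cattle and with EPHX1, ZNF436 (both 0.878) and PDK4 (0.871) in pig. TJP1 ran with GABARAPL2 (0.884), WASF3 (0.883) and ANKRD6 (0.877) in cattle and with HLCS (0.938), FERMT2 (0.932) and IFT122 (0.928) in pig, and OCLN in pig with STC1 (0.910), CYB561 (0.882) and EPB41L4A (0.881). F11R encodes JAM-A, itself a tight junction membrane protein.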

How the data were processed

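The submitters' processing notes name Cell Ranger 2.1.0 and the builds ARS-UCD1.2 and Sscrofa11.1. The authors deposited raw UMI counts for every gene and barcode. Per the file headers the pig matrices were written by software version 3.0.2, while the cattle headers name none, and this difference cannot be told apart from species. For cattle all 737280 barcodes are listed, and for pig only those that reach 500 UMIs. The methods state that doublets and low-quality cells were excluded, with no threshold given in the sources used here.

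Cell Ranger 2's rule for calling cells was applied to the counts, for 3000 expected cells, and 200 genes were required per cell. The cells with the highest Scrublet scores, 0.8% for every 1000 cells, were left out as doublets. The automatic threshold of Scrublet marked 1 to 545 cells per library and was not used. Cells of each species were clustered in scanpy 1.11.5 by the Leiden method (igraph 0.11.9, resolution 1) on 2000 variable genes, with no junction gene among them. A cluster took the name of the cell type with the largest mean fold over its markers, given at least 3 markers in 5% of cells and 2-fold above the median cluster. Clusters that also carried another type's markers or leading genes stayed unnamed. The naming rules date from after a look at the clusters, and HSD17B3 was then dropped as a Leydig marker.

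Counts were summed per animal and cell type, with at least 10 cells per sum. The main test, on genes that reached 10 counts, was edgeR's quasi-likelihood test (edgeR 4.0.16, R 4.3.3) with TMM factors and a Benjamini-Hochberg threshold of 0.05. In simulated counts the share of false calls was above that level in most comparisons, and mostly higher still with the block. The simulation held no effect of the animal, so it cannot decide whether the block is the better fit for the paired sums. Both sums of an animal come from 1 library and are therefore paired: deviations of the same animal correlated at 0.23 to 0.67. Alternatives were a replicate block for the animal, DESeq2 1.42.0, library size alone, no low-count filter, each animal left out, deeper cells and other clusterings. In both species a testis number recurs in the labels with another animal tag. Each library was counted as 1 animal, and nothing more is known of their relation, so p-values measure the spread between these libraries. Poisson intervals cover counting error only.

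All 7 members are named in every comparison. Of the other junction genes, those named are the 2 with the largest change in each direction that passed and changed alike in every animal, except 1 gene that is not reported here. The members and lists were chosen with earlier results of these data known.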

Additional observations from a re-analysis of the deposited data

Results flagged for a closer look

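For CDH2 the difference between Sertoli-like and other cells was larger in cattle than in pig, by 1.46 on the log2 scale (edgeR quasi-likelihood interaction, SE 0.41, adjusted p = 0.030), a difference between groups by its own test. The Sertoli-like cells were higher in 3 of 3 cattle and 3 of 3 pigs. Germ-like cells made up 2.92% ± 0.682 of the cells of an animal in cattle and 19.1% ± 12.8 in pig (SD, n = 3). Of the CDH2 UMIs of the other cells, they held 219 of 454 in cattle and 734 of 1045 in pig. Compared directly, they lay below Sertoli-like cells by 2.21 on the log2 scale in cattle and by 1.95 in pig. The part of this mix of cells in the difference was not tested. Of the cells other than Sertoli-like, myoid-like cells had 7.62 to 11.9 CPM in cattle and 11 to 72.8 CPM in pig, and macrophage-like cells 0 to 8.02 CPM and 16 to 49.2 CPM. The value of 72.8 CPM, in pig 1, is 1 UMI in 15 myoid-like cells, where pigs 2 and 3 had 61.8 CPM from 86 UMIs and 11 CPM from 11 UMIs. In macrophage-like cells, 49.2 CPM in pig 1 is 3 UMIs in 65 cells, beside 46 CPM from 13 UMIs in pig 2 and 16 CPM from 33 UMIs in pig 3. The summed level of the Sertoli markers, 11 genes in cattle and 10 in pig, was 1584 to 1924 CPM in myoid-like cells of cattle and 2005 to 9223 in those of pig, and 663 to 977 and 347 to 4579 in macrophage-like cells. The 347 CPM were in pig 3, below every macrophage-like sum of cattle, while its CDH2 level was above all of theirs. The macrophage-like cells of pig were uneven in CDH2. It was at 49.9 CPM from 32 UMIs in a cluster of 153 cells. In the cluster of 380 cells it was at 9.6 CPM from 17 UMIs. Each is a single sum with no test, and the share of each animal in these clusters is not given here. The part of the Sertoli markers and of these clusters in the difference was not tested.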

How the results depend on the processing

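Of 123 counts of members recomputed under an alternative, 100 stayed within 1.5 times their value. With the animal as a replicate block, 5 members were higher in Sertoli-like cells of cattle (2 without), and in endothelial-like cells of pig 3 were higher and 2 lower (1 and 0 without). In that comparison, DESeq2 gave 2 higher and 2 lower, and library size alone and no low-count filter gave 0 higher each. With each animal left out in turn, members higher in Sertoli-like cells of cattle numbered 2 to 4 (4 without cattle 1), higher in germ-like cells of cattle 0 to 2, lower in endothelial-like cells of cattle 0 to 2, higher and lower in Sertoli-like cells of pig 1 to 2 and 0 to 1, and higher in germ-like cells of pig 0 in every case. Members that differed between species numbered 0 to 1. Clusters at resolution 0.5, junction genes allowed in clustering and cells of at least 1000 UMIs moved none of the 12 counts within species by over 1.5 times; the count between species was not run under these settings or DESeq2. For pig endothelial-like cells leaving out an animal left 1 pair of sums with no residual degrees of freedom, so no test was made.

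On the log2 scale TJP1 in pig reversed by library size alone, to -0.15 in Sertoli-like and 0.064 in germ-like cells. The difference between species reversed for GJA1, between -0.31 and 0.81 with an animal left out, and for CDH1, at -0.65 without pig 3 (up to 3.86). The cause was not tested.

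All genes called in Sertoli-like cells of cattle were 4682, with 7921 by the block and 1232 to 6248 with an animal left out, and in pig 3875, 6481 and 389 to 3385. In germ-like cells they were 7081 (3588 to 8431) in cattle and 5676 (2249 to 3510) in pig. In endothelial-like cells of cattle they were 617, with 970 by DESeq2, 1011 without the filter, 1185 by the block, 1097 in cells of at least 1000 UMIs and 290 to 1063 with an animal left out. In pig they were 1072, 2300 by DESeq2, 438 without the filter and 4847 by the block. Between species they were 1492, 3329 by the block and 575 to 1518. Low counts limit OCLN in cattle (26 UMIs) and CDH1 in both species.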

Other observations

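GJA1 was uneven among the endothelial-like clusters of both species. In cattle a cluster of 108 cells led by CCL21, a chemokine that lymphatic endothelium is known for, had 659 CPM, and one of 27 cells led by TM4SF1 and CLEC14A had 88.6. In pig a cluster of 28 cells led by CCL21 and MMRN1 had 1251 CPM, against 136 and 95.1 in clusters of 348 and 311 cells led by CLEC3B and CAV1. CLDN5 in cattle was at 1529 and 1140 CPM in the 2 cattle clusters. The Leydig-like clusters differed as well, with 571 CPM of GJA1 in a cattle cluster of 324 cells led by STAR, which came to 99.7% from cattle 2, and 191 and 181 CPM in clusters of 916 and 538 cells. A cluster of 132 Leydig-like cells, 100% of them from cattle 1, had 78.5 CPM.

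Of 268 unnamed pig cells in a cluster led by UCHL1, a germ marker, CLDN11 was at 633 CPM, and 97.4% of these cells came from pig 2. A myoid-like pig cluster of 308 cells, 93.5% of them from pig 2, had 599 CPM, against 137 in the other one, of 314 cells. In cattle a cluster of 223 myoid-like cells led by the division genes UBE2C and CENPF had 88.8 CPM of CLDN11 and 37.4 of CDH2, where the other myoid-like clusters had 9.5 to 23.9 and 3.7 to 11.2. Each is 1 sum over cells of several animals, chosen after its value was seen, and none was tested.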
